A study of Mus musculus with 18 samples.

Results

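The Hox genes are homeobox genes that lie in 4 clusters, HoxA on chromosome 6, HoxB on chromosome 11, HoxC on chromosome 15 and HoxD on chromosome 2. A member was any gene whose platform symbol is Hoxa, Hoxb, Hoxc or Hoxd followed by a number from 1 to 13, antisense transcripts left out. Of 39 such mouse genes, 33 had a probe set named for them alone, 9 in HoxA, 9 in HoxB, 7 in HoxC and 8 in HoxD. These 33 are among 18193 genes measured. Hoxb8 shared its probe set with Hoxb7 and Hoxd4 shared both of its probe sets with Hoxd3, and the other genes without a probe set of their own were not analysed here. Each gene is given by its brightest probe set, as a log2 signal.

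The arrays were made from whole dorsal root ganglia (DRG), the clusters of sensory neuron cell bodies beside the spinal cord, taken from all spinal levels of mice of both sexes. There were 18 arrays, with 3 in each of 6 groups. Nav1.7 KO mice lacked the sodium channel gene Scn9a in sensory neurons only, through the Cre recombinase of Advillin-Cre mice crossed with floxed animals. The Nav1.8 line lacked Scn10a and the Nav1.9 line Scn11a, each as a global null mutation. Each KO line had its own littermate controls, labelled as wild type. It is not stated whether 1 array is 1 animal, so the spread between arrays may be partly technical, nor what share each spinal level had in a sample.

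Hox proteins are DNA-binding factors that tell cells where they lie along the body axis. Genes with low numbers start at the hindbrain and neck, those in the middle at the level of the forelimb and upper trunk, and those with high numbers at the trunk, lumbar and sacral levels, so that the set of Hox genes a ganglion expresses follows its spinal level. Genes with the same number in different clusters are paralogues and act together. Many neurons keep their Hox pattern into adult life, when Polycomb proteins hold the other genes of each cluster silent.

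Hox promoters are rich in CG dinucleotides, and the RefSeq table (build GRCm38.p6) held 21 promoters of 19 of the 33 members, each 300 bases long, with 250 bases before the start of transcription and 50 after it. They had a median of 15 CG dinucleotides, with 4 to 45 in each, against a median of 7 over all 32851 promoters of the table. Those of Hoxa9, Hoxd9, Hoxa10 and Hoxd10, the 4 genes numbered 9 and 10 in the table, are shown because these trunk and lumbar genes had positive log2 fold changes in Nav1.7 KO DRG against littermates, of which those of Hoxd9 and Hoxa10 passed the test. Capitals mark each CG, and each sequence runs 5′ to 3′ on the strand of its gene. Hoxa10 has 2 starts in the table.
Hoxa9, chr6:52227321-52227620, - strand: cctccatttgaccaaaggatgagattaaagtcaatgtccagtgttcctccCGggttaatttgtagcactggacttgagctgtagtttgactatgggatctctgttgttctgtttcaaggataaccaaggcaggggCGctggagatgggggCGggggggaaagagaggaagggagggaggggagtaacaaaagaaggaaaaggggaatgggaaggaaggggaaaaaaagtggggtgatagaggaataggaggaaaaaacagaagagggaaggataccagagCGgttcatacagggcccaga
Hoxd9, chr2:74697513-74697812, + strand: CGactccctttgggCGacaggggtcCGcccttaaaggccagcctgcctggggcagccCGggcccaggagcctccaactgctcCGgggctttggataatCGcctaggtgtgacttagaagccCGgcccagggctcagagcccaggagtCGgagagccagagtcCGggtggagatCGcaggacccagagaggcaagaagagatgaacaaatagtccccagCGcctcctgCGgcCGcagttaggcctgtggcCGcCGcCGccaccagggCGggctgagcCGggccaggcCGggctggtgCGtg
Hoxa10, chr6:52240805-52241104, - strand: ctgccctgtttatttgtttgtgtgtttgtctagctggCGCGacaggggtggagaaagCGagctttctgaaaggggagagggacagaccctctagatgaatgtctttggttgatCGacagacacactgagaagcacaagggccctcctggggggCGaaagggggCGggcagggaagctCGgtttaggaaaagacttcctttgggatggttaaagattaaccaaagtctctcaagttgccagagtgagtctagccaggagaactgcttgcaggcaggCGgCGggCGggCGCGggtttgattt
Hoxa10, chr6:52234890-52235189, - strand: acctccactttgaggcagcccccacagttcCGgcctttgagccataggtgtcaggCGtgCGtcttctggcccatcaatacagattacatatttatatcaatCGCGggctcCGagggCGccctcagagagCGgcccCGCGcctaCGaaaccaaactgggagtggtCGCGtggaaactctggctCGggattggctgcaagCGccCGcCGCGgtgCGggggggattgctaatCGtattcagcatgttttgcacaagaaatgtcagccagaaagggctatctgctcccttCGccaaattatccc
Hoxd10, chr2:74691641-74691940, + strand: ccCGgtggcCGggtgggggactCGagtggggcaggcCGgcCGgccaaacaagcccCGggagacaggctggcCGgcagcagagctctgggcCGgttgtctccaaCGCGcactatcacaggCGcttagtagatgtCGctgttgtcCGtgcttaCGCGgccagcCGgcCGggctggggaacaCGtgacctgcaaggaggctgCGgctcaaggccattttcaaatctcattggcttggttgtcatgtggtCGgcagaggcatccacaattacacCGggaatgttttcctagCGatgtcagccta
The promoter of Hoxa9 held 4 CG dinucleotides, the fewest among the Hox promoters, as did 1 of Hoxd11, that of Hoxd9 held 20, that of Hoxd10 held 22, and those of Hoxa10 held 12 and 21. Of all promoters in the table, 39.6% had 12 or more, and so had 14 of the 21 Hox promoters. TGATNNAT, the composite site of Pbx and Hox proteins, was sought on both strands and was found in 8.85% of all promoters, in 3 of the 21 Hox promoters and in 0 of the 5 promoters of Hox genes numbered 9 and 10. TTTATG, the core bound by Cdx factors, which switch on posterior Hox genes in the embryo, was found in 11.9% of all promoters, in 3 of the 21 and in 0 of the 5. These counts describe letters in a short window and not binding.

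The levels of the Hox genes spanned a wide range in DRG (the plot of mean signals against paralogue number). Hoxa9 was brightest, at a mean log2 signal of 10.83 over the 18 arrays and 10.50 to 11.03 in single arrays. Hoxd1, which in mouse shapes the central projections of nociceptors, had a mean of 10.04, and Hoxd8 one of 9.73. Hoxb1, a hindbrain gene, was dimmest at 3.55, followed by Hoxd12 at 3.88 and Hoxb13 at 4.25. Signals of different probe sets are not comparable as amounts of RNA, so this order describes probe sets and not transcripts.

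A dim level was set from genes that DRG should lack. The 90th percentile of 43 olfactory receptor probe sets was 5.08, and the brightest Y-linked signal in the 7 arrays with high Xist was 4.86. Of the 33 members, 24 had a mean above the olfactory level and 9 did not, and 5 of these 9 were among the 7 measured genes numbered 11 to 13. Over all genes, 21.3% were at or below the olfactory level. Each of the 7 measured genes numbered 9 and 10 had a mean of 6.27 or more. Hoxb9 was the lowest of them and Hoxa9 the highest.

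**Figure D1:**
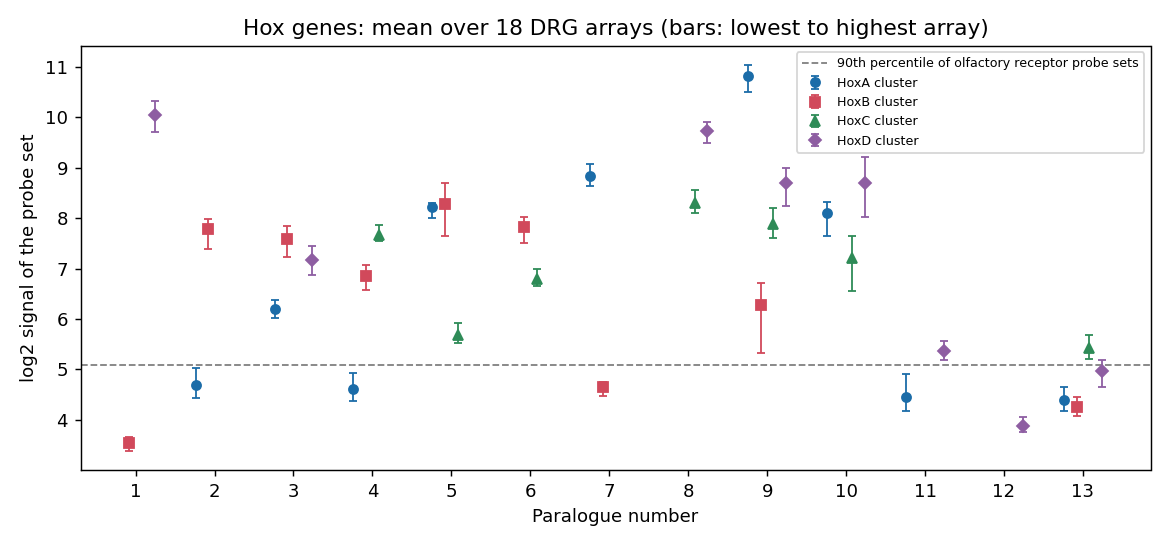
Mean log2 signal of the 33 measured Hox genes over 18 DRG arrays (y axis) against paralogue number (x axis), with clusters by colour and symbol and bars from the lowest to the highest array. The dashed line at 5.08 is the 90th percentile of olfactory receptor probe sets, and 5 of the 7 genes numbered 11 to 13 lie below it.

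Of the KO lines, only Nav1.7 had Hox genes past the threshold against its littermates. Using limma with p-values adjusted over all 18193 genes and a threshold of 0.05, 4 Hox genes rose, 2 fell and 27 were not called. Over all genes, 4.33% were called, 1.81% as higher and 2.51% as lower in KO. The genes that rose were Hoxb9, Hoxc10, Hoxa10 and Hoxd9, all trunk and lumbar genes numbered 9 or 10, and the genes that fell were Hoxb5 and Hoxb3, neck and forelimb-level genes of the HoxB cluster. In bulk tissue, fewer cells of a kind cannot be told apart from less RNA per cell, and a change in level cannot be told apart from a different share of ganglia of each spinal level. KO and littermate arrays did not overlap for 10 of the 33 Hox genes, 5 with KO above and 5 below, while 20.4% of all genes were without overlap.

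Hoxb5, which in mouse acts in neural crest cells that form the enteric nervous system, had log2 signals of 7.64, 7.89 and 7.74 in Nav1.7 KO DRG, against 8.63, 8.69 and 8.54 in littermates. All 3 KO arrays lay below the 3 littermate arrays and also below the 12 arrays of the other lines, of which the lowest was 7.99. The log2 fold change was -0.86 (SE 0.09), a 1.82-fold decrease, with an adjusted p of 1.62e-05 in limma. It was the largest change in either direction among the 33 Hox genes.

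Hoxb3, which patterns the hindbrain and neck with its paralogues, had log2 signals of 7.37, 7.52 and 7.23 in Nav1.7 KO DRG, against 7.82, 7.65 and 7.68 in littermates. The groups did not overlap, but the highest KO array lay within the range of the 12 arrays of the other lines, which began at 7.46. The log2 fold change was -0.34 (SE 0.08), with an adjusted p of 0.0221 in limma. A second, dimmer probe set of Hoxb3 gave -0.06, with an adjusted p of 0.764 in a limma fit over all probe sets.

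No decrease was called for the neighbours of Hoxb5 on chromosome 11. Hoxb4 gave a log2 fold change of -0.07 (SE 0.08) and Hoxb6 one of -0.07 (SE 0.08), with adjusted p-values of 0.716 and 0.721 in limma. The probe set of Hoxb5os, the antisense transcript at Hoxb5, gave -0.17 (SE 0.09), with an unadjusted p of 0.0592 and an adjusted p of 0.399 over all probe sets. The paralogues of Hoxb5 also stayed below the threshold, with Hoxa5 at -0.05 (SE 0.05) and Hoxc5 at -0.07 (SE 0.10). Whether these changes differ from that of Hoxb5 was not tested. The probe set that Hoxb8 shares with Hoxb7 gave -0.01, the 2 that Hoxd4 shares with Hoxd3 gave -0.10 and 0.04, and none of these was called.

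Hoxb9, which with its paralogues patterns the ribs of the thorax, had log2 signals of 6.04, 5.99 and 6.28 in Nav1.7 KO DRG, against 5.90, 5.32 and 5.55 in littermates. The KO arrays were all higher, and the groups did not overlap. The log2 fold change was 0.51 (SE 0.12), a 1.43-fold increase, with an adjusted p of 0.0194 in limma. Like the other SEs given here, this one pools the spread of all 6 groups. The spread was unequal, with an SD of 0.29 in Nav1.7 littermates, against 0.04 to 0.15 in the other groups. With the Nav1.7 line fitted alone, the adjusted p in limma was 0.192.

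Hoxc10, a gene of lumbar motor neurons at the level of the hindlimb, had log2 signals of 7.16, 7.47 and 7.26 in Nav1.7 KO DRG, against 6.98, 6.56 and 6.96 in littermates. Littermate replicate 2 was the lowest of the 18 arrays, and the groups did not overlap. The log2 fold change was 0.47 (SE 0.11), with an adjusted p of 0.0183 in limma.

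Hoxa10, whose paralogue group suppresses ribs in the lumbar region, had log2 signals of 8.26, 8.25 and 8.31 in Nav1.7 KO DRG, against 8.07, 7.64 and 7.99 in littermates. The KO arrays lay close together above every other array of the series, while the littermate arrays were spread out. The log2 fold change was 0.38 (SE 0.09), with an adjusted p of 0.0286 in limma. This rests on a probe set whose suffix marks several transcripts of the gene, and the other Hoxa10 probe set, which is dim at 3.79, gave 0.00.

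Hoxd9, a trunk gene of the HoxD cluster, had log2 signals of 8.66, 8.74 and 8.71 in Nav1.7 KO DRG, against 8.25, 8.30 and 8.60 in littermates. The groups did not overlap, although littermate replicate 3 came close. The log2 fold change was 0.32 (SE 0.08), with an adjusted p of 0.0279 in limma. The HoxD cluster lies on chromosome 2, as does Scn9a.

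The remaining genes numbered 9 and 10 had positive fold changes that missed the threshold. Hoxc9, which sets thoracic identity in the spinal cord by repressing forelimb Hox genes, had a log2 fold change of 0.23 (SE 0.07, adjusted p 0.0746 in limma), with KO arrays at 8.10, 8.20 and 7.92, against 7.89, 7.76 and 7.88 in littermates. Hoxa9, known from blood stem cells and leukaemia, had 0.21 (SE 0.08, adjusted p 0.202 in limma), and its second probe set had 0.08. Hoxd10, another hindlimb-level gene, had 0.41 (SE 0.15, adjusted p 0.175 in limma). All 7 genes numbered 9 and 10 thus had a positive log2 fold change, from 0.21 to 0.51 with a median of 0.38. Each had an unadjusted p under 0.05 in limma, and that share over all genes was not counted. The median over all genes was 0.01. This grouping was made after the values had been seen and carries no test.

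No increase was called at the posterior end of the clusters. None of the 7 measured genes numbered 11 to 13 was called in Nav1.7 KO DRG, and their log2 fold changes ran from -0.22 to 0.16 with a median of -0.04. Of these genes, 5 are at the dim level. Hoxc13, which is above it, had arrays at 5.45, 5.44 and 5.21 in KO DRG, against 5.53, 5.67 and 5.55 in littermates, a log2 fold change of -0.22 (SE 0.07, adjusted p 0.131 in limma). The 7 genes numbered 1 to 3 had a median of -0.02 and the 12 numbered 4 to 8 one of -0.07. Across the 26 genes numbered 1 to 10, the log2 fold change and the paralogue number had a Pearson r of 0.60 and a Spearman rho of 0.66, and across all 33 genes 0.34 and 0.36. These describe genes measured in the same 6 arrays, which are not independent.

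**Figure D2:**
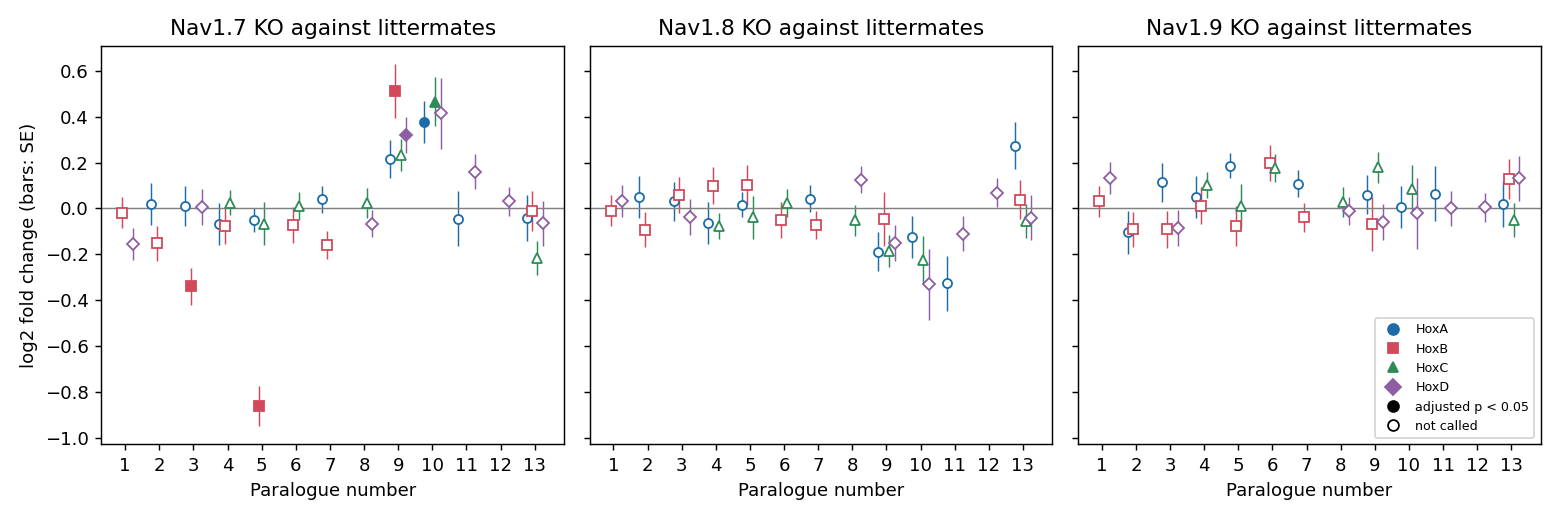
log2 fold change of KO against littermate DRG (y axis, bars are SE) by paralogue number (x axis) for the 33 Hox genes in each line, with filled symbols for an adjusted p under 0.05. In the Nav1.7 line the genes numbered 9 and 10 lie between 0.21 and 0.51 and Hoxb5 at -0.86, in the Nav1.8 line the genes numbered 9 and 10 lie between -0.33 and -0.05, and in the Nav1.9 line no gene lies beyond 0.20.

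In Nav1.8 KO DRG no Hox gene was called against littermates, and 5 had an unadjusted p under 0.05. Over all genes, 0.0165% were called in limma, and the share with an unadjusted p under 0.05 was not counted. The smallest p-values belonged to Hoxa13 and Hoxa11, both at the dim level. Hoxa13 had log2 signals of 4.65, 4.51 and 4.43 in Nav1.8 KO DRG, against 4.28, 4.18 and 4.30 in littermates, a log2 fold change of 0.27 (SE 0.10, adjusted p 0.538 in limma). Hoxa11 had 4.53, 4.50 and 4.22 in Nav1.8 KO DRG, against 4.52, 4.91 and 4.80 in littermates, a log2 fold change of -0.33 (SE 0.12, adjusted p 0.538 in limma). The first pair of groups did not overlap and the second did. KO and littermate arrays did not overlap for 6 of the 33 Hox genes, 1 above and 5 below, and for 13.8% of all genes.

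The genes numbered 9 and 10 had negative fold changes in this line, none of them called. Their log2 fold changes ran from -0.33 to -0.05, with a median of -0.19 and 3 unadjusted p-values under 0.05, and the median over all genes was -0.01. For 5 of these 7 genes the KO arrays lay below all littermate arrays, while 13.8% of all genes were without overlap in either direction. The 7 genes were grouped after their values were seen and were measured in the same arrays, so they are not independent. Hoxd10 had log2 signals of 8.73, 8.60 and 8.75 in Nav1.8 KO DRG, against 9.21, 8.99 and 8.88 in littermates, a log2 fold change of -0.33 (SE 0.15, adjusted p 0.612 in limma). Hoxc10 had 7.44, 7.36 and 7.18 in Nav1.8 KO DRG, against 7.47, 7.54 and 7.64 in littermates, a log2 fold change of -0.22 (SE 0.11, adjusted p 0.612 in limma). Hoxb5 had a log2 fold change of 0.10 (SE 0.09) and Hoxb3 one of 0.06 (SE 0.08) in this line, and both missed the threshold.

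In Nav1.9 KO DRG no Hox gene was called either, while limma called 0.473% of all genes. An unadjusted p under 0.05 was found for 4 Hox genes, and that share over all genes was not counted. The smallest p-values belonged to Hoxa5 and Hoxc6, genes of the neck and forelimb levels. Hoxa5 had log2 signals of 8.29, 8.23 and 8.28 in Nav1.9 KO DRG, against 8.18, 8.01 and 8.06 in littermates, a log2 fold change of 0.19 (SE 0.05, adjusted p 0.162 in limma). Hoxc6 had 6.95, 6.80 and 6.90 in Nav1.9 KO DRG, against 6.73, 6.67 and 6.72 in littermates, a log2 fold change of 0.18 (SE 0.06, adjusted p 0.262 in limma). In both cases every KO array lay above every littermate array. That was so for 4 Hox genes in all, with none the other way, and arrays did not overlap for 18% of all genes. The 7 genes numbered 9 and 10 had a median log2 fold change of 0.01, with 4 positive and 3 negative values.

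The KO effects of the lines were then set against each other in the same limma fit. The effect in Nav1.7 KO was more negative than in Nav1.8 KO for Hoxb5, by -0.96 on the log2 scale (SE 0.12, adjusted p 0.000409). It was more positive for Hoxc10, by 0.69 (SE 0.15, adjusted p 0.0237), for Hoxd9, by 0.47 (SE 0.11, adjusted p 0.0371), and for Hoxc9, by 0.42 (SE 0.10, adjusted p 0.0369). With Xist class as a term, these 3 lost their calls (adjusted p 0.308, 0.321 and 0.343, in the same order), and Hoxb5 kept its call. These 4 of 33 Hox genes stood beside 2.15% of all genes called in this contrast. All 7 genes numbered 9 and 10 had a positive difference, with a median of 0.50, against 0.02 over all genes. Between the effects in Nav1.7 KO and Nav1.9 KO, 1 Hox gene was called, Hoxb5, with -0.78 (SE 0.12, adjusted p 0.00198), beside 2.82% of all genes. Between those in Nav1.8 KO and Nav1.9 KO, 0 Hox genes were called, beside 0.0385% of all genes called in limma. An unadjusted p under 0.05 was found for 5 Hox genes, and that share over all genes was not counted.

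The littermates of the 3 lines also differed from each other in Hox genes. Nav1.7 littermates against Nav1.8 littermates gave 11 Hox genes called of 33, with 3 higher and 8 lower, while 23.3% of all genes were called in limma, 7.96% higher and 15.4% lower. Of the 7 genes numbered 9 and 10, 5 were called, all lower, and none of the 7 numbered 11 to 13 was. Hoxb9 was 2.01-fold lower in Nav1.7 than in Nav1.8 littermates (SE 0.12 on the log2 scale, adjusted p 5.53e-05 in limma). Hoxd10 was lower by -0.80 (SE 0.15, adjusted p 0.00192 in limma) and Hoxc10 by -0.72 (SE 0.11, adjusted p 0.000292 in limma). Hoxd9 and Hoxc9 were also called as lower, as were 3 genes with low numbers, Hoxd3 at -0.35, Hoxc4 at -0.26 and Hoxb2 at -0.23 on the log2 scale. Hoxd1, Hoxa7 and Hoxd8 were called as higher.

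Nav1.7 littermates against Nav1.9 littermates gave 8 Hox genes called, with 5 higher and 3 lower, and the share over all genes was 12.2%, with 4.76% higher and 7.45% lower. The 3 that were lower were Hoxb9 at -0.83, Hoxd10 at -0.62 and Hoxd9 at -0.35 on the log2 scale. The 5 that were higher were Hoxd1 at 0.45, Hoxb5 at 0.40, Hoxa7 at 0.27, Hoxc8 at 0.21 and Hoxa5 at 0.19. All 5 are numbered 8 or less. Nav1.8 littermates against Nav1.9 littermates gave 6 called, all higher, beside 12.8% of all genes. They were Hoxc10 at 0.48, Hoxc9 and Hoxa11 at 0.39 each, Hoxb6 at 0.30, Hoxa4 at 0.28 and Hoxc4 at 0.26 on the log2 scale. Hoxa4 and Hoxa11 were among the dim genes, and the arrays overlapped for Hoxa11. Each line was a separate set of animals, so line and any batch of collection or hybridization cannot be told apart. Xist, which is expressed in females, was high in all 3 Nav1.7 littermate arrays and low in the littermate arrays of the other lines, so among littermates Xist class and the Nav1.7 line cannot be told apart. With Xist class as a term, estimated from the KO arrays, 5 Hox genes were called between Nav1.7 and Nav1.8 littermates and 3 between Nav1.7 and Nav1.9 littermates. Macrophage and immune markers were lower in Nav1.7 littermates as well, with a median log2 difference of -0.56 and 10 of 16 called against Nav1.8 littermates, and -0.42 and 8 of 16 against Nav1.9 littermates. Their part in the Hox differences was not tested.

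The values of all 18 arrays show on which side the Nav1.7 groups stood apart. For Hoxb9, the 3 Nav1.7 littermate arrays (5.32 to 5.90) lay below all 12 arrays of the other lines (6.20 to 6.71), and the KO arrays (5.99 to 6.28) lay between the 2 sets or at the low edge of the others. For Hoxd10, the littermates (8.02 to 8.50) again lay below the 12 other arrays (8.56 to 9.21), and the KO arrays spanned 8.32 to 8.86. For Hoxc10 and Hoxd9, the KO arrays lay within the range of the other lines, while the lowest littermate arrays, at 6.56 and 8.25, lay below it. Hoxa10 differed, since its KO arrays (8.25 to 8.31) lay above all 12 other arrays, the highest of which was 8.20. Hoxb5 showed the opposite arrangement, with KO arrays below the 12 other arrays and littermate arrays reaching from 8.54 to 8.69, near or above their highest value of 8.55.

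**Figure D3:**
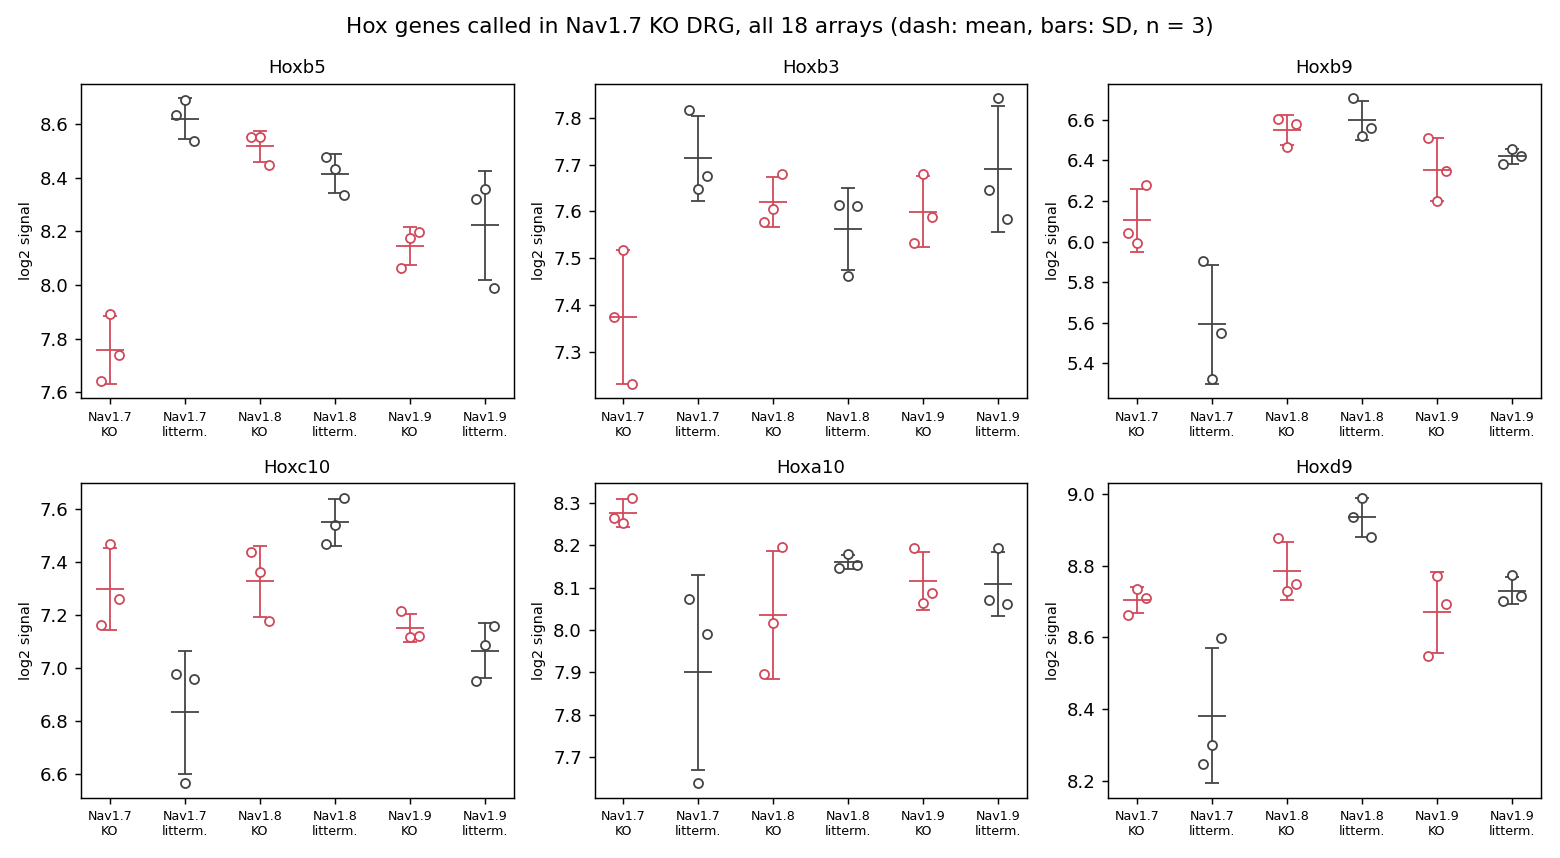
log2 signal (y axis) of the 6 Hox genes called in Nav1.7 KO DRG in each of 18 arrays by group (x axis), with open circles for arrays, dashes for means and bars for SD (n = 3). Hoxb5 is lowest in the 3 Nav1.7 KO arrays (7.64 to 7.89), and Hoxb9 is lowest in the 3 Nav1.7 littermate arrays (5.32 to 5.90).

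To summarise each array, every gene was centred on its mean over the 18 arrays and the genes of a paralogue range were averaged. For the 7 genes numbered 9 and 10, Nav1.7 KO arrays were at 0.04, 0.10 and 0.00, against -0.22, -0.51 and -0.22 in littermates. Nav1.8 KO arrays were between 0.00 and 0.06, against 0.18 to 0.26 in littermates. Nav1.9 KO arrays were between -0.04 and 0.11, against -0.07 to 0.04 in littermates. The 3 Nav1.7 littermate arrays were thus the lowest of the 18, with replicate 2 apart from the others, and the 3 Nav1.8 littermate arrays were the highest, so both KO groups sat between the littermates of these lines. For the genes numbered 4 to 8, which include Hoxb5, the means were closer. They were -0.06 ± 0.03 in Nav1.7 KO arrays and 0.05 ± 0.01 in littermates (SD, n = 3 each), without overlap of the arrays. Those numbered 1 to 3, which include Hoxb3, also gave arrays without overlap. Their means were -0.10 ± 0.04 in Nav1.7 KO arrays and -0.01 ± 0.04 in littermates (SD, n = 3 each). For those numbered 11 to 13, the means were -0.04 ± 0.06 in Nav1.7 KO arrays and -0.01 ± 0.03 in littermates (SD, n = 3 each).

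**Figure D4:**
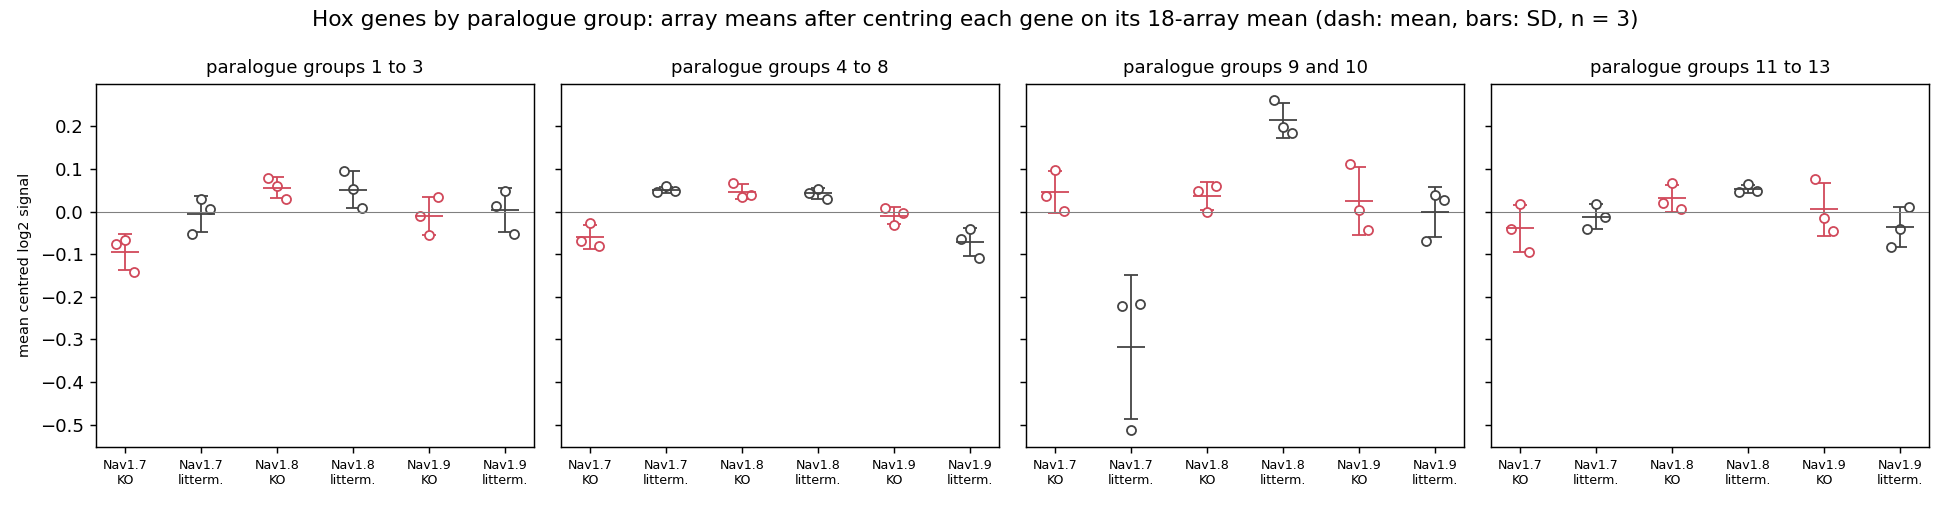
Mean centred log2 signal (y axis) of the Hox genes of each paralogue range in each of 18 arrays, by group (x axis), with circles for arrays, dashes for means and bars for SD (n = 3). For genes numbered 9 and 10, the Nav1.7 KO arrays lie at 0.00 to 0.10 and the Nav1.7 littermates at -0.51 to -0.22.

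Leaving out Nav1.7 littermate replicate 2, the array with the lowest signals of genes 9 and 10, left 2 Hox genes called in Nav1.7 KO DRG, both lower (Hoxb5 and Hoxb3), and none higher. Hoxb9 then had a log2 fold change of 0.38 with an adjusted p of 0.0884 in limma, and Hoxc10 had 0.33 with 0.0755. Hoxa10 had 0.24 with 0.0975 and Hoxd9 had 0.28 with 0.113. Hoxa9, which was not called with all arrays, had 0.12 in place of 0.21. All 7 genes numbered 9 and 10 kept a positive sign, and their median was 0.28. Without Nav1.7 KO replicate 1 there were 3 Hox genes called (2 higher, 1 lower), and without KO replicate 2 also 3 (1 higher, 2 lower). Fitting the Nav1.7 line alone left 1, Hoxb5. In that fit, Hoxc10, Hoxd9, Hoxa10 and Hoxb9 had adjusted p-values of 0.176 to 0.192 in limma.

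Of the 6 genes, Hoxb5 alone kept its call without any single array of the line. Hoxb3 lost it when littermate replicate 1 or KO replicates 1 or 3 were left out, with adjusted p-values up to 0.0995 in limma. Hoxb9 lost it without littermate replicates 2 or 3 or KO replicate 3 (up to 0.0884), and Hoxc10 without littermate replicate 2 or KO replicate 2 (up to 0.0897). Hoxa10 lost it without littermate replicate 2 or any KO array (up to 0.0975), and Hoxd9 without any array but littermate replicate 3 (up to 0.126). No sign changed.

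Other measures also varied between groups or between single arrays. Macrophage and immune markers had a positive log2 fold change for 16 of 16 genes in Nav1.7 KO DRG, with a median of 0.37 and 1 called, and their mean log2 level was 7.41 to 7.80 in KO arrays, against 7.04 to 7.36 in littermates and 7.47 to 8.11 over the other lines. Skeletal muscle markers had a median of 0.63 with 0 of 12 called. They were at 9.05, 6.58 and 7.84 in Nav1.7 KO arrays, against 7.30, 6.63 and 8.04 in littermates. These groups overlapped, and Nav1.9 littermate arrays spanned 5.95 to 8.33. Fibroblast and meningeal markers were lower in Nav1.7 littermates than in Nav1.8 littermates, with a median of -0.45 and 5 of 12 called. The DRG neuron markers were at 12.41 in Nav1.7 KO arrays, against 12.45 to 12.49 in littermates. Of 22 listed, 19 were measured, and 2 were called as higher and 2 as lower, beside 4.33% of all genes. KO arrays were also lower in the Nav1.8 line (12.35 to 12.38 against 12.43 to 12.47) and the Nav1.9 line (12.345 to 12.39 against 12.44 to 12.47). The list includes Scn10a, Scn11a and Avil, the Advillin gene, each of which was called as lower in 1 of the KO lines. These 3 genes enter the means above, which were not computed without them. The median log2 fold change of the 19 genes, which 1 gene moves little, was -0.039 in the Nav1.7 line. It was -0.006 in the Nav1.8 line and -0.014 in the Nav1.9 line. Xist was high in 2 of the 3 Nav1.7 KO arrays and in all 3 Nav1.7 littermate arrays, in 2 of the 3 Nav1.8 KO arrays and in 0 of the 3 Nav1.8 littermate arrays, and low in all Nav1.9 arrays. With Xist class as a term in limma, Hoxb5 stayed called and Hoxd9 was not (0.29, adjusted p 0.0691). The part of the cell type markers in the Hox results was not tested.

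The deleted genes gave a check of the labels in the Nav1.8 and Nav1.9 lines. Scn10a was lower in Nav1.8 KO DRG by -1.57 on the log2 scale, and Scn11a was lower in Nav1.9 KO DRG by -1.85, each called in limma. Scn9a itself gave -0.06 (SE 0.06, adjusted p 0.642) in Nav1.7 KO DRG, with overlapping arrays. Whether its probe set lies in the floxed part of the gene is not known here, so Scn9a gave no check of the Nav1.7 labels. Avil gave -0.64 (adjusted p 8.03e-08 in limma) in that line. Whether its littermates carried the Advillin-Cre is not stated, so an effect of the Cre was not separated from that of the deletion.

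The genes that work with the Hox proteins were counted in lists of their own. Of 9 measured TALE homeodomain cofactors, which bind DNA together with Hox proteins, 1 was called in Nav1.7 KO DRG, Pbx3, at -0.29 (SE 0.07, adjusted p 0.0263 in limma), and the list had a median of -0.04. Of 28 Polycomb genes, which keep Hox genes silent, and of 14 trithorax and demethylase genes, which keep them active, 0 were called in any of the 3 lines. The same held for 19 genes of the signals that set up the Hox pattern in the embryo, such as retinoic acid and Gdf11. Among 20 homeodomain factors of sensory neurons outside the clusters, 1 was called in Nav1.7 KO DRG, Isl2, a LIM-homeodomain factor of sensory and motor neurons, at -0.52 (SE 0.05, adjusted p 2.5e-05 in limma). Among 15 limb and axial level genes outside the clusters, 0 were called in Nav1.7 KO or Nav1.8 KO DRG and 1 in Nav1.9 KO DRG, Hand2, a limb and sympathetic neuron factor, at 0.23 (SE 0.05, adjusted p 0.0436 in limma). These counts stand beside the shares of all genes given above.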

How the data were processed

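RNA from whole DRG was hybridised to Affymetrix GeneChip Mouse Genome arrays, and the log2 values were deposited by the authors after processing in Affymetrix Expression Console (unit read from the values). The summary and normalization methods are not given in the sources used here, and detection calls were not used. Array medians were 6.33 to 6.36, and 0 value columns were left unmatched to a sample.

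Groups followed the sample titles, since the source names call every sample a littermate control. After 64 control probe sets were removed, 34945 of 45101 probe sets had 1 gene symbol in the platform annotation, 932 had several and 9160 none, which gave 18193 genes. The R package limma (version 3.58.1, R 4.3.3) estimated a mean for each of 6 groups, with 12 residual degrees of freedom and a moderated variance (eBayes, prior degrees of freedom 3.44). P-values were adjusted by Benjamini-Hochberg over all genes (threshold 0.05). The fit was also run on simulated data with independent noise of the same spread in every group. That run checked the code and not the calls made here. An exact permutation test of 3 arrays against 3 cannot go below 0.1.

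The members, gene lists and alternatives were chosen with earlier results of these data known. Array values are given for members past the threshold in a KO contrast or a difference of KO effects, for the 2 smallest p-values in KO contrasts with fewer than 2 calls, and for Hoxb5, and levels for the 3 brightest and 3 dimmest members. Related genes are named if called, up to 4 a list. Hoxd10, Hoxc13, the neighbours of Hoxb5, the members named between littermates and the grouping of genes numbered 9 and 10 were chosen after their values were seen. Alternatives were other scalings, probe set rules, priors, weights, a replicate block, Xist class, each line alone and leaving out each array.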

Additional observations from a re-analysis of the deposited data

Results flagged for a closer look

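KO effects of different lines differed past the threshold of the limma fit in 5 cases. Hoxb5 had -0.96 on the log2 scale for the effect in Nav1.7 KO minus that in Nav1.8 KO (SE 0.12, adjusted p 0.000409) and -0.78 against that in Nav1.9 KO (SE 0.12, adjusted p 0.00198). Its KO arrays were lower than littermates in 3 of 3 Nav1.7 arrays. For Nav1.7 KO minus Nav1.8 KO, Hoxc10 had 0.69 (SE 0.15, adjusted p 0.0237), Hoxc9 had 0.42 (SE 0.10, adjusted p 0.0369) and Hoxd9 had 0.47 (SE 0.11, adjusted p 0.0371). With Xist class in the model these 3 had adjusted p-values of 0.308, 0.343 and 0.321, while both differences of Hoxb5 stayed past the threshold under each of 22 alternatives, with adjusted p-values up to 0.00511 and 0.0112. Of 22 alternatives, Hoxc10 lost its call under 6, Hoxd9 under 12 and Hoxc9 under 13, most of them the removal of 1 array of either line.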

How the results depend on the processing

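The count of Hox genes called in Nav1.7 KO against littermates, 6 in the model of all arrays, was 1 with each line fitted alone (Hoxb5), 0 by an analysis of variance on the 6 arrays of the line (12 Hox genes had an unadjusted p under 0.05 in limma, and Hoxb5 an adjusted p of 0.0804 in the analysis of variance), 1 at an unadjusted p under 0.01 with a fold over 1.5, and between 2 and 5 without 1 array. The shares of all genes at these unadjusted levels were not counted. Hoxa10 lost its call without probe sets of the suffixes _x_at, _s_at and _a_at, which left the dim one at 0.00. No Hox gene was called in Nav1.8 KO or Nav1.9 KO under any alternative run. The 4 Hox genes whose KO effect differed between Nav1.7 and Nav1.8 became 2 with each probe set tested separately, 1 with Xist class in the model and 1 to 5 without 1 array. The 1 between Nav1.7 and Nav1.9 became 2 with a trend and robust prior, and 1 to 2 without 1 array. Between littermates of Nav1.7 and Nav1.8, 11 became 5 with Xist class, 6 without the HoxD cluster (fewer genes counted) and 8 to 11 without 1 array. Between those of Nav1.7 and Nav1.9, 8 became 3 with Xist class, 5 without the HoxD cluster and 5 to 10 without 1 array, and between those of Nav1.8 and Nav1.9, 6 became 4 to 6. Except where fewer genes or arrays entered, the cause was not tested.

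Over the 3 lines, same-numbered KO and littermate arrays did not deviate together in every pair (r from -0.19 to 0.27). The numbers were therefore not taken as pairing in the main model. In the Nav1.7 line these r were 0.02, 0.25 and 0.27, and differently numbered arrays gave -0.25 to 0.02. Whether the arrays of that line were paired was not tested. With the number as a replicate block, 4 Hox genes were called in Nav1.7 KO, with Hoxc10 (adjusted p 0.105) and Hoxa10 (0.0505) losing their calls, and 1 for the difference from Nav1.8. The absence of detection calls limits what dim genes can show.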
